A study of Mus musculus with 9 samples.

Results

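Matrix metalloproteinases and their inhibitor were followed in mouse colon through the 5 genes of this kind on a wound healing PCR array: the proteases Mmp1a, Mmp2, Mmp7 and Mmp9 and the inhibitor Timp1, taken by name from the 84 panel genes. Female C57BL/6 mice aged 8 to 9 weeks formed 3 groups: untreated animals on plain drinking water (UN), animals given 3% dextran sulphate sodium, an agent that injures the colonic epithelium and causes acute colitis (DSS), and animals given 3% DSS together with 8 mg/kg/day dipotassium glycyrrhizate, a salt of the liquorice compound glycyrrhizin, by gavage (DSS+DPG). Colon was taken after 7 days. The RNA of 5 animals was pooled in each group and the pool was run on 3 arrays, so the error given throughout is that of repeated arrays of 1 pool. The spread between animals is not in these data, and p-values measure only the array repeats.

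Metalloproteinases are zinc enzymes that cut proteins of the extracellular matrix. Mmp1a belongs to the interstitial collagenases, Mmp2 and Mmp9 are the gelatinases, which cut denatured collagen and basement membrane collagen, and Mmp7, or matrilysin, is a small protease made mainly by epithelium. They are secreted as inactive precursors, and Timp1 blocks the active enzymes by binding at the catalytic site, so inhibitor and proteases are often read side by side. In the inflamed gut, Mmp9 is known as a product of neutrophils and macrophages, and Mmp2 as a product of fibroblasts.

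The promoters of Mmp1a, Mmp7 and Timp1 are shown so that their letters can be set beside 3 different courses of expression. The RefSeq promoter table of build GRCm38.p6 matched 3 of the 5 members, not Mmp2 and Mmp9. Each window runs from 250 bases before the start site to 50 bases after it, on the plus strand: chr9:7463891-7464190 for Mmp1a, chr9:7691840-7692139 for the first listed start of Mmp7 and chrX:20869916-20870215 for Timp1. Capitals mark matches to 3 motifs, each searched on both strands. The AP-1 motif was spelled TGANTCA. The TATA box, which lies just before the start of many genes, was spelled TATAAA. The letters of the GC box, whose reverse strand is the one matched in Timp1, were GGGCGG.
Mmp1a: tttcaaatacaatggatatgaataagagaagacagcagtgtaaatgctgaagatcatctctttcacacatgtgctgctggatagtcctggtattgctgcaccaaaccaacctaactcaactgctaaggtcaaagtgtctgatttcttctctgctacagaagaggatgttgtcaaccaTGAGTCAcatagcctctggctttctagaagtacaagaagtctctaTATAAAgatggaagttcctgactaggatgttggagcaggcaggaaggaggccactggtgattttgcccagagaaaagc
Mmp7: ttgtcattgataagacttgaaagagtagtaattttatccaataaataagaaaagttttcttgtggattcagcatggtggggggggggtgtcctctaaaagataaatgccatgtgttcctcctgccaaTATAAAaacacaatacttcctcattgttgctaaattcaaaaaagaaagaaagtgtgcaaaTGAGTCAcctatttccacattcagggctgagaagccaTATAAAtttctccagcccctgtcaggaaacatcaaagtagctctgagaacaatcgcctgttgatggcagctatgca
Timp1: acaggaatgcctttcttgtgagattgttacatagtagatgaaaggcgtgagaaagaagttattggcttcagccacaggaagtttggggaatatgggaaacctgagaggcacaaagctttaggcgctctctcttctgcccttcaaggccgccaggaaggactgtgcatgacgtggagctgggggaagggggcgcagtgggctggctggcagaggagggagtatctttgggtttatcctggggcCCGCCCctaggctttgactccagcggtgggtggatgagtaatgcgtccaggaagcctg
Relative to the start site, the first base of the AP-1 match in Mmp1a was at -73 and that of its TATA box at -28. Mmp7 held the same pair, with AP-1 at -63 and TATA boxes at -26 and -123. In Timp1 the single match was a GC box at -8. Of 32851 promoters in the table, 7.81% held the AP-1 motif, 13.6% the TATA box and 35.7% the GC box. The NF-kappaB motif (in 0.411% of promoters) and the STAT motif (TTCNNNGAA, in 8.30%) had no match in the 3 windows, and none of the matches overlapped another. The second listed start of Mmp7, at chr9:7692091-7692390, had no match to any of the 5 motifs. These matches describe letters only.

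Amounts were read as Ct, the cycle at which the signal of a well crosses its threshold, so that a lower Ct means more template and 1 cycle is a doubling where amplification is complete. For comparison between groups, the mean Ct of 5 housekeeping genes (Actb, B2m, Gapdh, Gusb and Hsp90ab1) was subtracted in each array, and differences are given as minus delta Ct, a log2 scale. This reference was not level: its mean Ct was 22.00, 22.23 and 23.44 for UN, DSS and DSS+DPG, and the Ct of single housekeeping genes moved by -1.10 (B2m) to 1.08 (Hsp90ab1) from UN to DSS and by 0.39 (Hsp90ab1) to 1.71 (B2m) from DSS to DSS+DPG. The median Ct of the panel was 27.84 to 27.89 for UN, 26.57 to 26.77 for DSS and 29.60 to 29.69 for DSS+DPG. Between 77 and 80 panel genes had a Ct below 35, the reverse transcription control wells read 23.70 to 24.06, and the genomic DNA wells gave no signal. The arrays numbered 3 stood apart in one respect: over 245 combinations of gene and group, the Ct of replicate 3 lay between those of the other arrays in 187, against 25 for replicate 1, 19 for replicate 2 and 14 ties. Among the members this held in 12 of 15. Each comparison was therefore also fitted without replicate 3, and the calls (limma adjusted p under 0.05) this changed are given beside the results. Calls that held could have a larger adjusted p without it. In DSS against UN the limma adjusted p was then 5.55e-05 for Timp1 and 0.00225 for Mmp9, against 5.89e-09 and 1.15e-05 with all arrays.

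**Figure D1:**
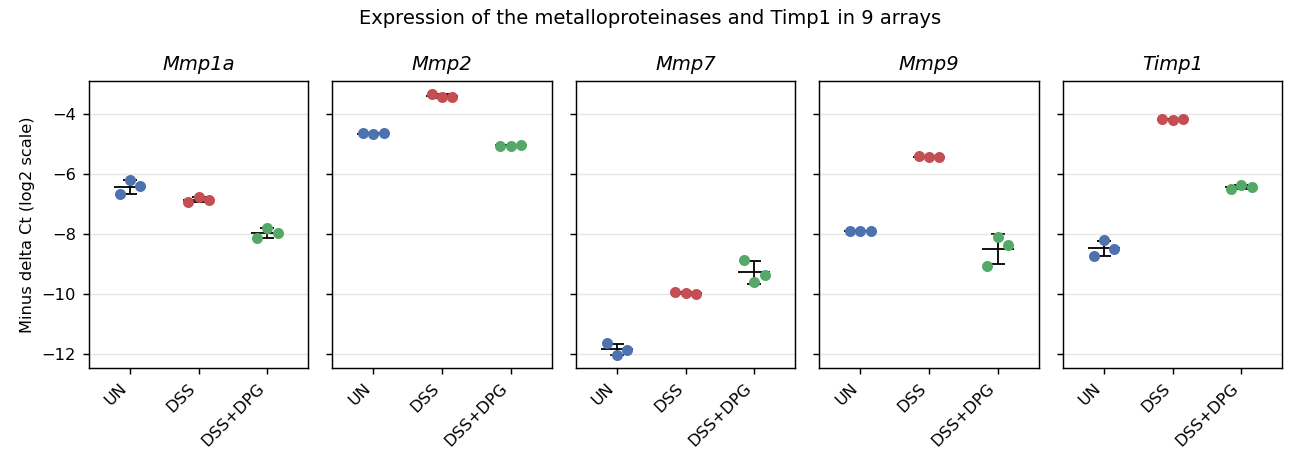
Expression of Mmp1a, Mmp2, Mmp7, Mmp9 and Timp1 in the 9 arrays, as minus delta Ct against 5 housekeeping genes (log2 scale, higher is more). Points are arrays, the horizontal dash is the mean of 3 arrays of 1 pool and the bars are the SD. Mmp2, Mmp9 and Timp1 were highest in DSS, Mmp7 was highest in DSS+DPG and Mmp1a was highest in UN.

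Timp1, the inhibitor, was the member with the largest change from UN to DSS. Its Ct was 30.72, 30.22 and 30.52 in the UN arrays, 26.48, 26.36 and 26.41 in DSS, and 29.95, 29.82 and 29.89 in DSS+DPG. The 3 groups did not overlap, with DSS far below both others. Among the 84 panel genes ordered by Ct, Timp1 rose from places 63 to 66 in UN to place 38 in DSS and stood at places 44 to 45 in DSS+DPG. Relative to the housekeeping genes it was 19.7-fold higher in DSS than in UN (log2 difference 4.30, SE 0.113, limma adjusted p = 5.89e-09). In DSS+DPG it was 4.79-fold below DSS (-2.26, SE 0.113, adjusted p = 2.32e-07) and 4.11-fold above UN (2.04, adjusted p = 4.97e-07). Under 9 other references these 3 differences kept their direction and their call, ranging from 2.86 to 4.78, from -3.47 to -0.49 and from 0.60 to 2.37.

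Mmp9, the gelatinase of inflammatory cells, was higher in DSS than in either other group. Its Ct was 29.91 in all 3 UN arrays, 27.71, 27.62 and 27.66 in DSS, and 32.53, 31.53 and 31.81 in DSS+DPG. No group overlapped another, and the DSS+DPG arrays were the most scattered of the 3 groups (SD 0.516 cycles, against 0.0451 in DSS). Expression was 5.57-fold higher in DSS than in UN (2.48, SE 0.218, adjusted p = 1.15e-05) and 8.48-fold lower once DPG was added to DSS (-3.08, SE 0.218, adjusted p = 2.36e-06). Both calls held under the 9 other references. Against UN, the DSS+DPG value was 1.52-fold lower (-0.61, SE 0.217, adjusted p = 0.0279), a call that was lost with Gapdh alone as reference (-0.28, adjusted p = 0.251), with the panel median as reference (-0.28, adjusted p = 0.258), with B2m left out of the reference (-0.40, adjusted p = 0.111) and when any 1 UN array was left out (adjusted p from 0.0577 to 0.0649). Without replicate 3 it was -0.67 (adjusted p = 0.115).

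Mmp2, the gelatinase of stromal cells, had the lowest Ct of the members in every array. The UN arrays read 26.64, 26.68 and 26.67, the DSS arrays 25.66, 25.61 and 25.67, and the DSS+DPG arrays 28.53, 28.49 and 28.48. The SD over the arrays of a group was at most 0.0321 cycles, and no group overlapped another. Expression was 2.37-fold higher in DSS than in UN (1.25, SE 0.036, adjusted p = 9.91e-09), 3.13-fold lower once DPG was added to DSS (-1.64, SE 0.036, adjusted p = 1.70e-09) and 1.32-fold lower in DSS+DPG than in UN (-0.40, adjusted p = 1.16e-05). These differences were of the size of the panel's own shift: with the panel median as reference, they became -0.20 (adjusted p = 0.00992), 0.13 (adjusted p = 0.0583) and -0.07 (adjusted p = 0.272). With Gapdh alone the difference between DSS+DPG and UN was also -0.07 (adjusted p = 0.173).

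Mmp7, the epithelial matrilysin, was the member with the highest mean Ct in each group. It read 33.64, 34.02 and 33.88 in UN, 32.25, 32.13 and 32.21 in DSS, and 32.31, 33.05 and 32.81 in DSS+DPG. The DSS and DSS+DPG arrays did not overlap as raw Ct, with DSS lower, while after subtraction of the reference they did not overlap with DSS+DPG higher. Expression was 3.68-fold higher in DSS than in UN (1.88, SE 0.185, adjusted p = 2.46e-05, or 0.44 and 0.0518 against the panel median) and 5.91-fold higher in DSS+DPG than in UN (2.56, adjusted p = 2.73e-06), and the latter call held under the 9 other references. The difference of DSS+DPG from DSS (0.68, SE 0.185, adjusted p = 0.00826, 1.61-fold) depended on the reference. It was -0.14 (adjusted p = 0.488) against Itga3, Mif and Hsp90ab1, which were the genes of the deposited delta Ct, and -0.53 (adjusted p = 0.0246) as raw Ct, and without replicate 3 it was 0.71 (adjusted p = 0.0748).

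Mmp1a, the collagenase, was the protease that did not rise with DSS. Its Ct was 28.67, 28.21 and 28.43 in UN, 29.24, 28.95 and 29.09 in DSS, and 31.58, 31.25 and 31.41 in DSS+DPG. The groups stood in that order with no overlap. Expression in DSS was 0.43 lower than in UN on the log2 scale (-0.43, 95% interval -0.72 to -0.13, adjusted p = 0.0123). This small difference was 0.05 with Gapdh alone (adjusted p = 0.744), -0.02 against Itga3, Mif and Hsp90ab1 (adjusted p = 0.896), -0.09 with B2m left out of the reference (adjusted p = 0.490), and -0.41 without replicate 3 (adjusted p = 0.116). DSS+DPG was 2.16-fold below DSS (-1.11, adjusted p = 5.39e-05), a difference that turned to 0.66 (adjusted p = 0.00109) against the panel median. It was 2.90-fold below UN (-1.54, adjusted p = 5.72e-06), which held under the 9 other references.

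The counts of members called were read against those of the whole panel. In DSS against UN 4 members rose and 1 fell, where 61.9% of the 84 panel genes tested rose and 29.8% fell, and the arrays of the groups did not overlap for 95.2% of genes. In DSS+DPG against DSS 1 member rose and 4 fell, where 13.1% of genes rose and 76.2% fell, with no overlap for 90.5%. In DSS+DPG against UN 2 rose and 3 fell, where 22.0% of 82 genes tested rose and 69.5% fell, with no overlap for 93.9%. The 5 members did not overlap in any of the 3 comparisons. Their median log2 differences were 1.88, -1.64 and -0.40, beside 0.71, -1.30 and -0.69 over all genes tested. In pooled tissue, fewer cells of a type and less RNA per cell cannot be told apart.

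**Figure D2:**
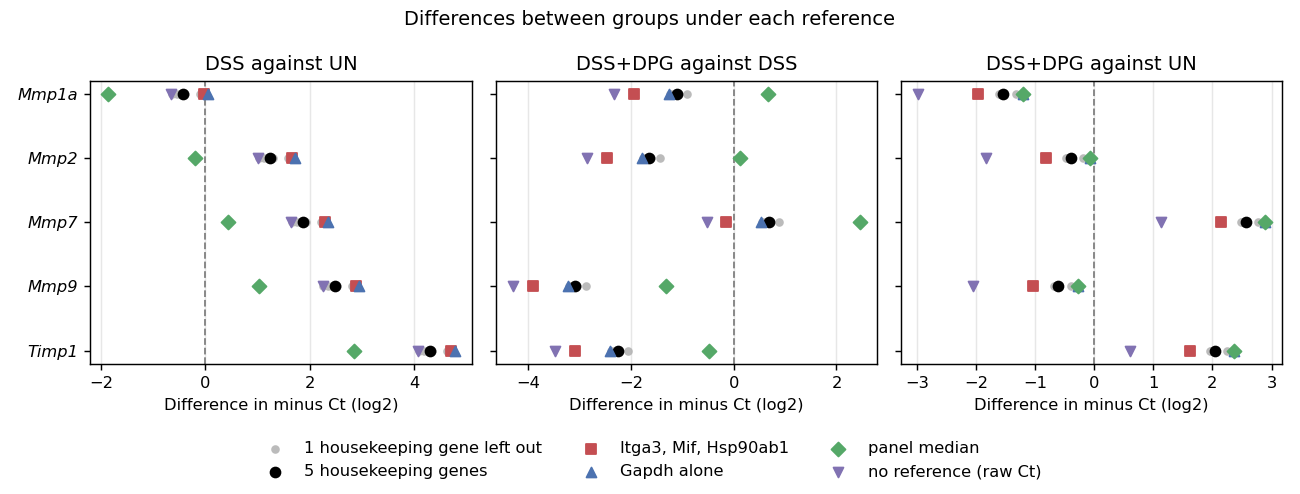
Difference of each member between groups on the log2 scale (horizontal axis) under each reference: the 5 housekeeping genes (black), 1 of them left out (grey), 3 other genes, Gapdh alone, the panel median, or no reference. All points of Timp1 and Mmp9 lie on one side of 0 in each comparison, while those of Mmp1a, Mmp2 and Mmp7 lie on both sides in at least 1.

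The plot of differences under each reference shows that the side of 0 was fixed for Timp1 and Mmp9 and not for Mmp1a, Mmp2 and Mmp7. A measure that needs no reference is the gap between 2 genes in the same array, and the balance of proteases and inhibitor was read in this way, as the Ct of Timp1 minus the Ct of the protease. A gap above 0 means that the protease crossed the threshold first. The size of a gap within a group also holds the efficiency of both assays, so only its change between groups was tested.

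In UN, 3 of the 4 proteases crossed the threshold before Timp1. The mean gap was 3.82 ± 0.271 cycles for Mmp2, 2.05 ± 0.0400 for Mmp1a and 0.58 ± 0.252 for Mmp9 (SD, n = 3 arrays), and only Mmp7 came later, at -3.36 ± 0.440. In DSS the inhibitor had overtaken Mmp1a (-2.68 ± 0.0850) and Mmp9 (-1.25 ± 0.0153), while Mmp2 kept a gap of 0.77 ± 0.0436 and Mmp7 lay at -5.78 ± 0.0173. In DSS+DPG the gaps were -1.53 ± 0.10 for Mmp1a, 1.39 ± 0.0493 for Mmp2, -2.84 ± 0.441 for Mmp7 and -2.07 ± 0.454 for Mmp9. Thus Mmp2 was ahead of Timp1 in all 9 arrays and Mmp7 behind it in all 9, and Mmp1a and Mmp9 were ahead in the 3 UN arrays and behind in the other 6.

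From UN to DSS every protease lost ground to Timp1. The gap changed by -4.73 for Mmp1a (SE 0.104, limma adjusted p = 6.27e-12), by -3.05 for Mmp2 (SE 0.136, adjusted p = 7.39e-10), by -2.42 for Mmp7 (SE 0.242, adjusted p = 1.52e-06) and by -1.82 for Mmp9 (SE 0.208, adjusted p = 4.99e-06). This was common to the panel: 89.2% of the 83 other genes tested fell against Timp1 and 8.43% rose.

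From DSS to DSS+DPG the proteases parted. Mmp7 gained 2.94 on Timp1 (adjusted p = 5.46e-07), Mmp1a gained 1.15 (adjusted p = 1.11e-06) and Mmp2 gained 0.62 (adjusted p = 0.00133, or 0.0512 without replicate 3), whereas Mmp9 lost a further 0.82 (adjusted p = 0.00321). Gaining was the common direction, seen for 67.5% of the panel, and losing the rarer one, seen for 18.1%. Mmp9 was therefore on the side of the minority of genes that fell more than Timp1 between these groups.

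Between UN and DSS+DPG the gap had changed by -3.58 for Mmp1a (adjusted p = 3.50e-11), -2.44 for Mmp2 (adjusted p = 2.34e-09) and -2.65 for Mmp9 (adjusted p = 5.64e-08), in a comparison where 86.4% of 81 genes fell against Timp1 and 7.41% rose. For Mmp7 the difference was 0.52 (95% interval 0.0056 to 1.04, adjusted p = 0.0505) and its arrays overlapped. This value lay at the threshold, and passed it when UN replicate 1 (0.74, adjusted p = 0.00863) or DSS+DPG replicate 2 (0.72, adjusted p = 0.00453) was left out.

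**Figure D3:**
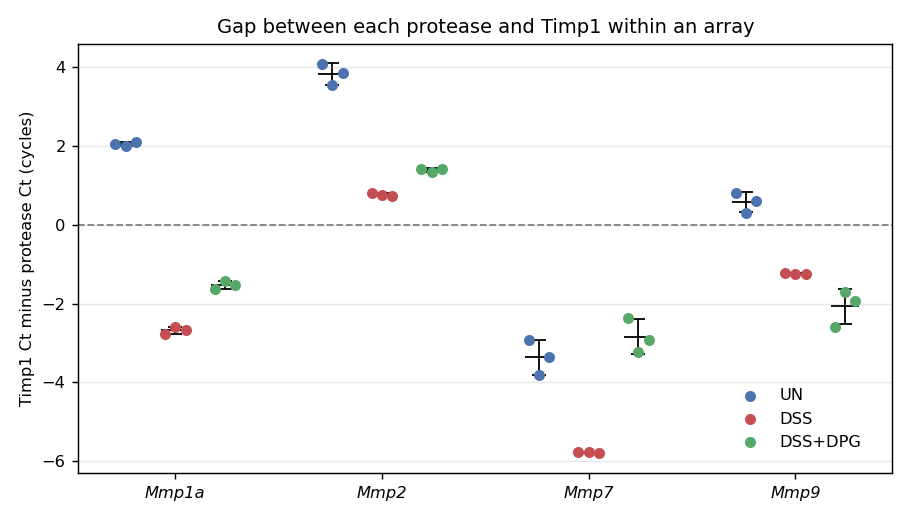
Gap between each protease and Timp1 in the same array, as Timp1 Ct minus protease Ct in cycles (vertical axis), with 0 where both cross together. Points are arrays, dashes the mean and bars the SD of 3 arrays of 1 pool. Mmp1a and Mmp9 lie above 0 in UN and below it in DSS and DSS+DPG, and Mmp9 is the protease whose gap is lower in DSS+DPG than in DSS.

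Summed over the 4 proteases, template of Timp1 amounted to 4.36, 5.89 and 4.93% of the proteases in the UN arrays, 42.4, 43.8 and 44.2% in DSS, and 29.8, 30.3 and 29.4% in DSS+DPG. The groups did not overlap, and DSS+DPG lay between the others but nearer to DSS. On the log2 scale the balance moved by 3.11 towards the inhibitor from UN to DSS (8.65-fold), back by 1.46-fold from DSS to DSS+DPG (-0.54), and stood 5.94-fold (2.57) above UN in DSS+DPG. Each of these differences had p = 0.1 in a two-sided exact permutation test of 3 arrays against 3, the smallest p this design allows, and 0.1 after adjustment over the 3 tests. These percentages assume a doubling per cycle in every assay. Mmp2 made up a mean of 71.1%, 74.1% and 78.0% of the protease sum in UN, DSS and DSS+DPG, so the summed balance mostly follows Mmp2. The gap of Mmp9 moved the other way from DSS to DSS+DPG (-0.82). The balance is one of RNA, and the arrays do not measure protein or enzyme activity.

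Which protease led was then asked from the share of each in the summed template of the 4. The shares also assume a doubling per cycle, so the order of genes within a group holds the efficiency of their assays too. On this assumption Mmp2 held most of the summed template in every array: 73.7, 68.5 and 71.0% in UN, 74.9, 73.6 and 73.8% in DSS, and 79.6, 76.2 and 78.1% in DSS+DPG. UN and DSS overlapped (p = 0.2, exact permutation test), and DSS+DPG lay above both. Below Mmp2 the order changed. Mmp1a was the next protease in UN with 20.9 ± 2.84%, and held 6.81 ± 0.511% in DSS and 10.4 ± 0.828% in DSS+DPG (SD, n = 3 arrays). Mmp9 took that place in DSS with 18.3 ± 0.243%, from 7.49 ± 0.171% in UN, and held 7.34 ± 2.18% in DSS+DPG, where its arrays (4.98, 9.27 and 7.77%) overlapped those of UN (7.64, 7.30 and 7.52%, p = 1, exact permutation test). Without DSS+DPG replicate 1, the difference of Mmp9 between DSS+DPG and UN went from -0.15 to 1.03 percentage points.

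Mmp7 was the smallest part in the mean of each group, at 0.493 ± 0.0773% for UN, 0.791 ± 0.0127% for DSS and 4.30 ± 1.33% for DSS+DPG. Its DSS+DPG arrays read 5.80, 3.23 and 3.88%, all above every other array, and in replicate 1 it exceeded Mmp9. The 12 comparisons of shares, apart from that of Mmp2 in DSS against UN and that of Mmp9 in DSS+DPG against UN, had p = 0.1 in the exact permutation test, the smallest possible, and 0.12 after adjustment. The order of mean Ct, with Timp1 included, was Mmp2, Mmp1a, Mmp9, Timp1, Mmp7 in UN and Mmp2, Timp1, Mmp9, Mmp1a, Mmp7 in DSS, with no overlap of neighbours. In DSS+DPG it was Mmp2, Timp1, Mmp1a, Mmp9, Mmp7, where the Ct ranges of Mmp1a and Mmp9 overlapped but Mmp1a was ahead within each array, by 0.95, 0.28 and 0.40 cycles. Mmp9 and Mmp7 overlapped and changed order between arrays, with Mmp7 ahead by 0.22 cycles in replicate 1.

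**Figure D4:**
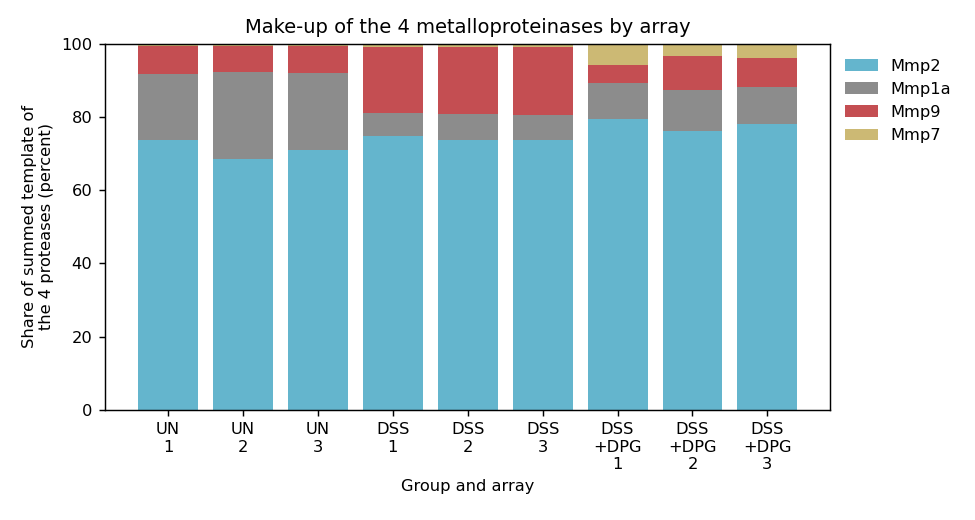
Share in percent (vertical axis, from 0) of Mmp2, Mmp1a, Mmp9 and Mmp7 in the summed template of the 4 proteases, for each of the 9 arrays. Mmp2 holds 68.5% to 79.6%, Mmp9 is widest in the DSS arrays and Mmp7 is widest in the DSS+DPG arrays.

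The panel genes most like each member were found by the root mean square distance between their delta Ct, each centred on its own mean over the 9 arrays. Mmp2 had the closest neighbour, the growth factor Igf1 at 0.0427 cycles, followed by the integrin subunits Itga4 (0.150) and Itgav (0.159), where the median over 79 genes was 0.848. Timp1 lay nearest to the chemokine Ccl7 (0.150), the cytokine Tnf (0.322) and the urokinase receptor Plaur (0.436), with a median of 1.68. Mmp9 lay nearest to the plasminogen activator Plat (0.358), the chemokine Ccl12 (0.371) and the cyclooxygenase Ptgs2 (0.470), with a median of 1.14. Mmp1a lay near the integrin subunit Itga1 (0.204) and tissue factor F3 (0.205), with a median of 0.688. Mmp7 lay nearest to the T cell ligand Cd40lg (0.474), and the growth factor Hgf stood at 0.692, with a median of 1.5. Cd40lg was a late gene, with a mean minus delta Ct of -13.2 in UN, where Mmp7 was at -11.8. The protease Ctsg came between Cd40lg and Hgf by distance, but Ctsg had a Ct below the limit of 38 in only 1 of 9 arrays, so its distance is not a likeness of expression.

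A further list of 11 genes held cathepsins, genes of the plasminogen system and the coagulation genes F3, F13a1 and Fga. Of these 11, 7 rose, 2 fell and 2 did not pass the test in DSS against UN. Their median log2 difference was 0.81, where 61.9% of the panel rose. Their ends were tissue factor F3 (-0.22) and Plaur (3.46), and 1 of the 7 that rose, Fga, was at the limit in all UN arrays. In DSS+DPG against DSS 8 fell and 3 did not pass, where 76.2% of the panel fell. The 3 were Ctsg, Fga and Plg, which had no Ct below the limit in any DSS+DPG array, so their differences were not measured. The other 8 ranged from Plat (-3.77) to F3 (-0.91), with a median of -1.82. Of the 8 measured in both UN and DSS+DPG, 2 rose and 6 fell against UN, from the cathepsin Ctsl (-1.88) to Plaur (1.16), with a median of -0.75, where 69.5% of the panel fell.

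The 9 collagen genes, which encode substrates of these proteases, had 6 higher, 2 lower and 1 not called in DSS against UN, from Col4a3 (-2.58) to Col3a1 (1.48), with a median of 0.20 beside 0.71 over the panel. In DSS+DPG against DSS 8 fell and 1 was not called, from Col3a1 (-3.55) to Col4a3 (0.23), with a median of -1.77 beside -1.30 over the panel. In DSS+DPG against UN 8 fell and 1 was not called, from Col4a3 (-2.36) to Col1a1 (0.10), with a median of -1.68 beside -0.69. The shares of the panel given above, 61.9% higher, 76.2% lower and 69.5% lower in these comparisons, are the background of these counts.

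Cell type markers, including those of cells known to make these enzymes, moved in the same comparisons, and their part in the differences of the members was not tested. The summed level of 4 neutrophil and macrophage markers was 34.1 to 35.3 per 1000 of the reference in UN, 663 to 673 in DSS and 52.7 to 55.4 in DSS+DPG. The cytokine Il1b made up 80.8% of the sum in DSS and 47.0% in DSS+DPG, and F13a1 69.3% in UN. Of the 4, 3 rose and 1 did not pass in DSS, and 3 fell and 1 did not pass in DSS+DPG against DSS. Between UN and DSS+DPG 2 of 3 tested rose and F13a1 fell (-0.90). The background of these marker counts and of those below is the whole panel. In DSS against UN 61.9% of panel genes rose and 29.8% fell, and in DSS+DPG against DSS 13.1% rose and 76.2% fell. In DSS+DPG against UN 22.0% rose and 69.5% fell. The neutrophil protease Ctsg was at the detection limit in every UN and every DSS+DPG array. It had a Ct below the limit in only 1 of 9 arrays, so it cannot compare the groups. Mmp9 on the same scale was 4.16 ± 0.0426, 23.1 ± 0.506 and 2.84 ± 0.912. The sum of 7 fibroblast markers was 3634 to 3696 for UN, 8703 to 9326 for DSS and 1004 to 1047 for DSS+DPG, with 6 of 7 higher in DSS than in UN and 7 of 7 lower in DSS+DPG than in DSS, beside Mmp2 at 39.4 ± 0.520, 93.7 ± 3.91 and 29.97 ± 0.458. Col3a1 alone made up 77.8%, 88.9% and 66.1% of this sum. The median log2 difference of the 7 markers was 0.49 in DSS against UN, where Col14a1 fell (-0.87), and -1.80 in DSS+DPG against DSS. In DSS+DPG against UN 6 of the 7 fell and 1 was not called, with a median of -1.68, where the difference of Mmp2 was -0.40. The sum of 4 epithelial markers was 687 to 760 for UN, 418 to 438 for DSS and 460 to 467 for DSS+DPG. In DSS 1 of these rose and 2 fell, and in DSS+DPG against DSS 2 rose and 1 fell, while Mmp7 was 0.273 ± 0.0357, 1.00 ± 0.0194 and 1.64 ± 0.454. Against UN, 1 epithelial marker rose and 3 fell in DSS+DPG, where the log2 difference of Mmp7 was 2.56. The sum of 3 smooth muscle markers was 4574 to 6058, 2440 to 2554 and 1394 to 1439, and that of 4 T cell markers 0.983 to 1.15, 8.62 to 8.85 and 5.13 to 6.09, in the order UN, DSS and DSS+DPG. In this order Cdh1 made up 81.3%, 66.5% and 74.7% of the epithelial sum, and Tagln 50.1%, 63.6% and 51.5% of the smooth muscle sum. Il4 made up 68.0% of the T cell sum in UN, and Ifng 79.0% in DSS and 77.5% in DSS+DPG. From DSS to DSS+DPG, Actc1 rose (1.10) while 2 smooth muscle markers fell, and Cd40lg rose (1.55) while 3 T cell markers fell.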

How the data were processed

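The authors extracted colon RNA, pooled 5 animals per group and read 84 panel genes by SYBR green PCR on 3 arrays per pool. They deposited the raw Ct of each well, a log2 scale with no normalization, and averages over arrays. The deposited average Ct of the members matched the raw Ct within 0.0033 cycles. The deposited delta Ct implied a reference of 23.84, 24.48 and 24.86 (UN, DSS, DSS+DPG), which matched Itga3, Mif and Hsp90ab1 taken as a geometric mean, and not the 5 housekeeping genes (22.00, 22.23 and 23.44) that the methods name. Columns of fold change, p-values and false discovery rates were not used.

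Ct above 38 or missing was set to 38. Minus delta Ct, and separately Timp1 Ct minus gene Ct, were fitted over all 9 arrays with limma 3.58.1 in R 4.3.3, with Benjamini-Hochberg adjustment over all genes tested and a threshold of 0.05. Single sums and shares were compared by exact permutation in scipy 1.17.1 (Python 3.11.15), and figures were drawn with matplotlib 3.10.9. The fit was checked on simulated data in which no housekeeping gene shifted, so that check cannot speak to a reference that moves between groups. Alternatives were other references, limits, filters, fits of 2 groups, a replicate block, a factor of 1.8 per cycle, the methods' t-test, and leaving out arrays. Named genes were the members, the 3 nearest panel genes of each, the ends of the other lists, and the housekeeping genes. Members and lists were chosen with earlier results of these data known. The results of some single genes are not reported here. Arrays carry no sequencing depth, and the 3 arrays per pool limit the precision.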

Additional observations from a re-analysis of the deposited data

How the results depend on the processing

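Of 594 fits of single members or gaps under another setting, 563 kept their direction and side of the threshold, 19 lost the call, 6 gained it and 6 reversed. Many of these settings could not move the difference itself, only its p-value. They were the limits, the filter, fits of 2 groups, the replicate block, unadjusted p-values, the t-test and leaving out an array of the third group. The count of 563 is therefore not a measure of how stable the differences were. Reversals came with the panel median as reference for Mmp1a (0.66, DSS+DPG against DSS) and Mmp2 (-0.20, DSS against UN, and 0.13, DSS+DPG against DSS), with Gapdh alone for Mmp1a (0.05, DSS against UN), and for Mmp7 in DSS+DPG against DSS with Itga3, Mif and Hsp90ab1 (-0.14) or raw Ct (-0.53). The cause was not tested. Members called in DSS+DPG against UN were 3 of 5 with Gapdh alone and 3 with the panel median. The main fit called all 5, where 22.0% of the 82 genes tested rose and 69.5% fell. Shares of the panel under the other settings are not given, so the counts here and below are not read as particular to the members. Leaving out arrays in turn (and replicate 3 of all groups, added after seeing the data), members called ranged from 4 to 5 in each comparison, proteases called against Timp1 were 4 in DSS against UN and 3 to 4 in the others, and the Mmp9 share in DSS+DPG minus UN ranged from -1.12 to 1.03 percentage points. The methods' t-test lost Mmp1a (adjusted p = 0.0558) in DSS against UN, Mmp7 (0.0775) in DSS+DPG against DSS and Mmp9 (0.0739) in DSS+DPG against UN. Replicate numbers did not pair the arrays (correlations of 9 same-number pairs from -0.19 to 0.34, with 4 over 0.1, and 6 of 18 best matches with their own number). With the replicate block 5 members were called in each comparison, and Mmp7 against Timp1 in DSS+DPG against UN gained the call (adjusted p = 0.0130), making 4 of 4 proteases. One pool per group leaves the differences between animals unmeasured.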

Other observations

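The arrays numbered 3 resembled the mean of the others. Their Ct lay within 0.05 cycles of the mean of replicates 1 and 2 in 186 of 245 combinations of panel gene and group, and in 13 of 15 for the members. The 3 UN arrays gave the same Ct for Mmp9, 29.91, to the second decimal.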
